A study of Homo sapiens with 12 samples.

Results

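The 6 genes MT-CO1, MT-CO2, MT-CO3, MT-ATP6, MT-ATP8 and MT-CYB are the mitochondrially encoded subunits of respiratory chain complexes III and IV and of ATP synthase (complex V). They were taken by gene symbol, with earlier results of these data known. All 6 were present among the 15798 genes of the table and among the 10663 genes that passed the filter on low counts (no fewer than 10 counts in 3 or more input libraries). The remaining 7 genes of the mitochondrial genome encode complex I subunits and served for comparison. Counts came from ribosome profiling of HCT116, a human colorectal cancer cell line kept in culture, after 24 h with the solvent DMSO or with 100 nM trametinib, an inhibitor of MEK1/2, the kinases that activate ERK. Each treatment had 3 input libraries, made from randomly fragmented cytoplasmic RNA, and 3 libraries of ribosome protected fragments (footprints), that is, RNA stretches that survived RNase I digestion in the monosomal fraction of a sucrose gradient. All cells, controls included, received cycloheximide before lysis.

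Complex IV (cytochrome c oxidase) passes electrons from cytochrome c to oxygen, complex III passes them from ubiquinol to cytochrome c, and complex V makes ATP from the proton gradient that both help to build. The 6 proteins are translated inside mitochondria by mitochondrial ribosomes, while the other subunits of these complexes, some of them catalytic, are made in the cytosol and imported. The mitochondrial genome is transcribed into long precursors that are cut at tRNAs into mRNAs with very short or no leaders, and cycloheximide stops cytosolic but not mitochondrial ribosomes.

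On human chromosome M (GRCh38, Gencode 44), each of the 6 genes had a single exon on the plus strand, no intron and an ATG start codon. MT-CO1 lay at chrM:5904-7445, MT-CO2 at chrM:7586-8269, MT-ATP8 at chrM:8366-8572, MT-ATP6 at chrM:8527-9207, MT-CO3 at chrM:9207-9990 and MT-CYB at chrM:14747-15887. MT-ATP8 and MT-ATP6 are read in different frames from the same mRNA and overlap by 46 bases. The overlap is shown because reads inside it match both genes, with the start codon of MT-ATP6 and the stop codon of MT-ATP8 in capitals.
chrM:8527-8572, plus strand: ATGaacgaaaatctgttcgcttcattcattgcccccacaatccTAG
The junction of MT-ATP6 and MT-CO3 is shown because the last base of the MT-ATP6 stop codon is the first base of the MT-CO3 start codon, both in capitals.
chrM:9192-9221, plus strand: gcacgacaacacaTAATGacccaccaatca
The first 30 bases of MT-CO1, MT-CO2 and MT-ATP8, with the start codon in capitals, show where these annotated transcripts begin.
MT-CO1, chrM:5904-5933: ATGttcgccgaccgttgactattctctaca
MT-CO2, chrM:7586-7615: ATGgcacatgcagcgcaagtaggtctacaa
MT-ATP8, chrM:8366-8395: ATGccccaactaaatactaccgtatggccc
In 6 of 6 genes the annotated transcript was exactly as long as the gene, so it holds no bases before the start codon. Reads of 25 to 35 nt that begin before the start codon have no place to align fully on such a transcript, in input and footprints alike.

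Counts inside reading frames summed to 2276693 to 2845568 per input library and to 10127477 to 19181588 per footprint library. The 6 genes held between 741 and 38996 raw counts each in an input library and between 5610 and 122582 in a footprint library. Of 7 epithelial markers, 5 (EPCAM, KRT8, KRT18, CDH1 and ELF3) had at least 10 counts in every input library, while CDH17 and VIL1 had at most 1. Of 5 markers of other cell types in the table, COL1A1 had 14 to 36 counts per input library and the other 4 at most 1. The ERK target DUSP6 had 515 to 748 counts per DMSO input library and 0 to 5 per trametinib input library.

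The 6 genes together made up a larger part of the input than of the footprints. In DMSO input they held 3.27%, 3.41% and 3.38% of all counts in replicates 1 to 3, and in trametinib input 3.53%, 2.36% and 3.72%. In DMSO footprints they held 1.00%, 1.49% and 0.479%, and in trametinib footprints 1.62%, 1.59% and 1.57%. The mean share of footprint counts was 0.991% ± 0.506 (SD, n = 3) in DMSO and 1.60% ± 0.0273 (SD, n = 3) in trametinib, and each of the trametinib libraries lay above each of the DMSO libraries. In bulk lysates, fewer cells with an RNA and less of it per cell cannot be told apart. The 95% Wilson intervals, which cover counting error only, were far narrower than these differences (0.4763% to 0.4826% in DMSO replicate 3 and 1.483% to 1.498% in DMSO replicate 2).

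Levels per length were compared as CPM (counts per 1000000, with library sizes corrected by the TMM method over all 12 libraries) per kilobase of coding sequence. In DMSO input the order of mean levels was MT-CO2 with 12498 ± 821, MT-CO1 with 7203 ± 1028, MT-CO3 with 6502 ± 645, MT-ATP6 with 5764 ± 499, MT-CYB with 3016 ± 355 and MT-ATP8 with 2552 ± 37.0 CPM per kilobase (mean ± SD, n = 3). MT-CO1 and MT-CO3 overlapped, as did MT-CO3 and MT-ATP6, whereas the other neighbours in this order did not. The order was the same in trametinib input, where only MT-CO1 and MT-CO3 were neighbours without overlap. Within single libraries, each upper neighbour lay above the lower one in 3 of 3 trametinib input libraries. In DMSO input this also held, except that MT-CO1 lay above MT-CO3 in 1 of 3. Since MT-ATP8 and MT-ATP6 are read from the same mRNA, the gap between them in input cannot be read as a difference in mRNA level. What set this gap was not tested.

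In footprints MT-ATP8 moved from the last to the first places of the order. In trametinib footprints the mean levels were 4956 ± 348 for MT-ATP8, 4932 ± 172 for MT-CO2, 4084 ± 49.6 for MT-CO1, 2000.4 ± 148 for MT-CYB, 1989.5 ± 184 for MT-CO3 and 1939.6 ± 39.5 CPM per kilobase for MT-ATP6 (mean ± SD, n = 3). MT-CO2 and MT-CO1 did not overlap, nor did MT-CO1 and MT-CYB, while the last 3 genes overlapped, as did MT-ATP8 and MT-CO2. In DMSO footprints, where the libraries differed most, the ranges of all neighbours in the order overlapped. Within single libraries MT-ATP8 lay above MT-CO1, MT-CO1 above MT-CO3 and MT-ATP6 above MT-CYB in 3 of 3. MT-CO2 lay above MT-ATP8, and MT-CO3 above MT-ATP6, in 2 of 3 DMSO footprint libraries. MT-CYB was the lowest of the 6 genes there, with 1092 ± 579 CPM per kilobase (mean ± SD, n = 3).

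The question for input was whether trametinib changed the RNA level of these genes. With edgeR's quasi-likelihood test on the 6 input libraries and Benjamini-Hochberg adjustment over 10663 genes, 0 of 6 were called at an adjusted p under 0.05, against 32.1% of all tested genes called in either direction. At an unadjusted p under 0.05 there were 2, MT-ATP6 and MT-ATP8, both with lower estimates in trametinib. DESeq2 and limma-trend also called 0 of 6, whereas without the filter on low counts edgeR called MT-ATP6 lower (adjusted p = 0.0243). The median log2 change of the 6 genes was -0.24, beside -0.0014 over all tested genes, and 5 of 6 estimates were below 0. The median was -0.045 without trametinib input replicate 2 and -0.40 without trametinib input replicate 3. From here on, CPM values of single libraries are scaled within their assay, as in these tests.

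MT-ATP6, the membrane subunit of ATP synthase that forms the proton path, had 3923, 3714 and 4403 CPM in DMSO input replicates 1 to 3 and 2950.3, 2133.5 and 3697 CPM in trametinib input replicates 1 to 3. The groups did not overlap, but the highest trametinib value lay just under the lowest DMSO value. The log2 change was -0.46 with a standard error (SE) of 0.18 and a 95% interval of -0.85 to -0.07 (adjusted p = 0.0705, edgeR). Without DMSO input replicate 1 the adjusted p was 0.0441, and without trametinib input replicate 3 it was 0.0233.

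MT-ATP8, a small membrane subunit of the same enzyme, had 544, 527 and 533 CPM in DMSO input and 426, 324 and 497 CPM in trametinib input. Its groups did not overlap either, and its log2 change was -0.36 (SE 0.16, 95% interval -0.71 to -0.01, adjusted p = 0.106, edgeR). Groups without overlap were thus seen in 2 of 6 genes, beside 46.7% of all tested genes.

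MT-CO1, the catalytic subunit of cytochrome c oxidase, was the only gene of the 6 with a higher estimate in trametinib input. It had 11325, 13049 and 9839.8 CPM in DMSO and 15719, 10266 and 14493 CPM in trametinib, a log2 change of 0.24 (SE 0.17, 95% interval -0.12 to 0.61, adjusted p = 0.296, edgeR). Trametinib replicate 2 fell among the DMSO libraries and the other two lay above them.

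MT-CO2, which takes electrons from cytochrome c, had 8892, 8089.6 and 9241 CPM in DMSO input and 8046, 5391 and 9914 CPM in trametinib input. MT-CO3, the remaining core subunit of cytochrome c oxidase, had 5769.6, 4714.5 and 5222 CPM in DMSO input and 4776, 3097 and 4799.6 CPM in trametinib input. MT-CYB, the cytochrome b of complex III that carries its ubiquinone sites, had 3386, 3207.5 and 4009 CPM in DMSO input and 3312, 2301 and 4281.5 CPM in trametinib input. In all of these 3 genes the treatments overlapped, with log2 changes of -0.17, -0.31 and -0.10 and adjusted p-values of 0.525, 0.188 and 0.732 in the edgeR test. Trametinib input replicate 2 was the lowest of the 3 trametinib libraries for all 6 genes. Without it the estimates for MT-CO2 and MT-CYB turned to 0.04 and 0.10, and without DMSO input replicate 3 that for MT-CYB turned to 0.0036.

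**Figure D1:**
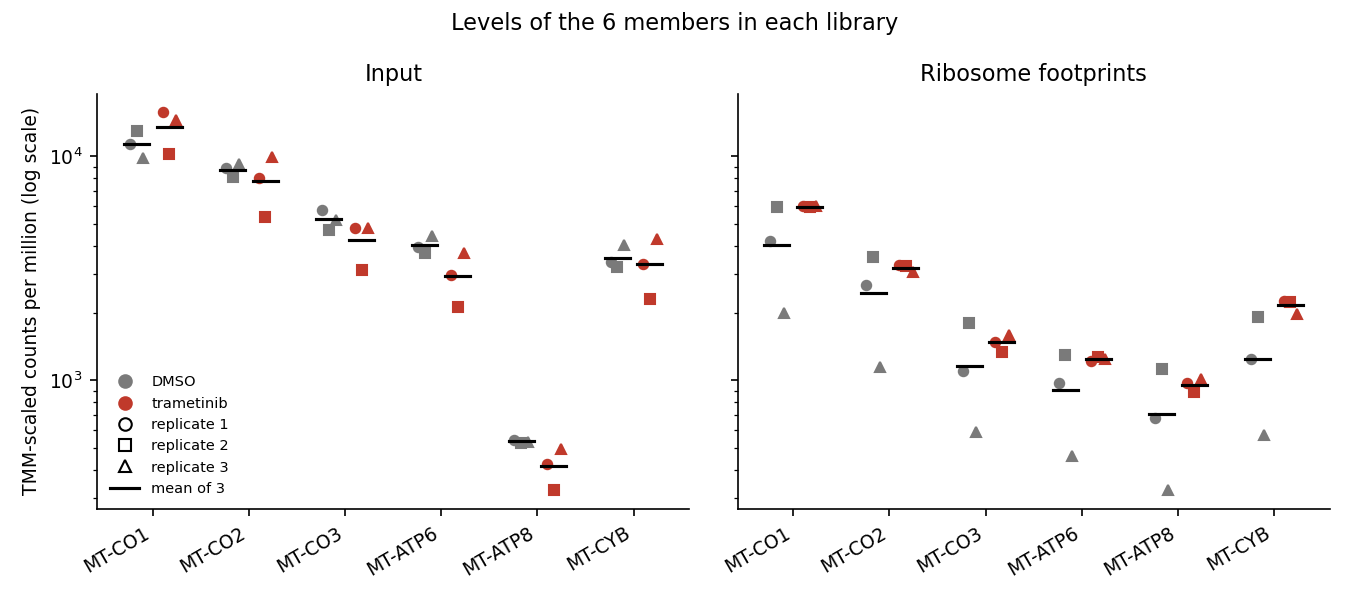
TMM-scaled CPM (log axis, scaled within each assay) of the 6 genes in each input library (left) and footprint library (right); each point is a library, its shape the replicate number, and bars mark means of 3. DMSO footprints of MT-CO1 range from 1992 to 5954 CPM, whereas the trametinib footprints range from 5922 to 6013 CPM, and the other genes show the same wide DMSO spread.

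The question for footprints was whether the ribosome protected RNA of these genes changed. All 6 estimates were above 0, with a median log2 change of 0.44 beside -0.0129 over all tested genes, but 0 of 6 were called by edgeR, against 49.4% of all tested genes called in either direction and 23.9% called higher. At an unadjusted p under 0.05 there was 1, MT-CYB. DESeq2 called MT-CYB alone of the 6, and limma-trend called 0.

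MT-CYB had 1242, 1911 and 570.5 CPM in DMSO footprints and 2273, 2250.2 and 1971 CPM in trametinib footprints. It was the only gene of the 6 whose treatments did not overlap in footprints, beside 59.6% of all tested genes without overlap. The mean went from 1241 ± 670.4 to 2165 ± 168 CPM (SD, n = 3), a log2 change of 0.80 (SE 0.35, 95% interval 0.0025 to 1.60) that missed the threshold in edgeR (adjusted p = 0.088). With the replicate number as a block the log2 change was 0.96 and the adjusted p was 0.0216, with DESeq2 the adjusted p was 0.0255, and with library totals in place of TMM it was 0.0458.

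The 3 cytochrome c oxidase genes had the same pattern of libraries in footprints. MT-CO1 had 4171, 5954 and 1992 CPM in DMSO and 5978, 5922 and 6013 CPM in trametinib. MT-CO2 had 2661, 3552 and 1146 CPM in DMSO and 3259.7, 3253 and 3044 CPM in trametinib. MT-CO3 had 1107, 1799 and 592 CPM in DMSO and 1493, 1342 and 1602 CPM in trametinib. In each of them DMSO replicate 3 was the lowest and DMSO replicate 2 reached or passed the trametinib libraries. Their log2 changes were 0.56 (95% interval -0.17 to 1.30), 0.38 (-0.38 to 1.14) and 0.34 (-0.40 to 1.09), with adjusted p-values of 0.179, 0.374 and 0.411 in edgeR.

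The ATP synthase genes also shared it. MT-ATP6 had 971, 1300.4 and 459 CPM in DMSO footprints and 1218.5, 1274 and 1249 CPM in trametinib footprints, a log2 change of 0.46 (95% interval -0.24 to 1.15, adjusted p = 0.246, edgeR). MT-ATP8 had 681, 1123.5 and 325 CPM in DMSO footprints and 975, 889 and 1012 CPM in trametinib footprints, a log2 change of 0.43 (95% interval -0.37 to 1.24, adjusted p = 0.338, edgeR). For both genes DMSO replicate 2 was above the trametinib range.

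The spread lay in the DMSO footprints, and what set it was not tested. DMSO footprint replicates also differed more over the whole table. Chi-square per degree of freedom between pairs of replicates was 23.3 to 112.7 in DMSO footprints and 5.47 to 10.16 in trametinib footprints. Over the 6 genes the coefficient of variation of the 3 DMSO footprint libraries was between 46.6% and 56.3%, and that of the 3 trametinib footprint libraries was between 0.768% and 8.82%. Without DMSO footprint replicate 2, edgeR called 4 of 6 genes higher in trametinib, with log2 changes of 0.96 for MT-CO1, 0.81 for MT-CO3, 0.94 for MT-ATP8 and 1.27 for MT-CYB (adjusted p-values 0.0327, 0.0379, 0.0330 and 0.0141). That fit called 2245 of 10663 tested genes higher. Without DMSO footprint replicate 1 edgeR called MT-CYB (adjusted p = 0.0492) and 3176 of all tested genes higher. Without DMSO footprint replicate 3 it called none of the 6 and 2363 of all tested genes higher, and the log2 changes of the 6 lay between 0.04 and 0.47.

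**Figure D2:**
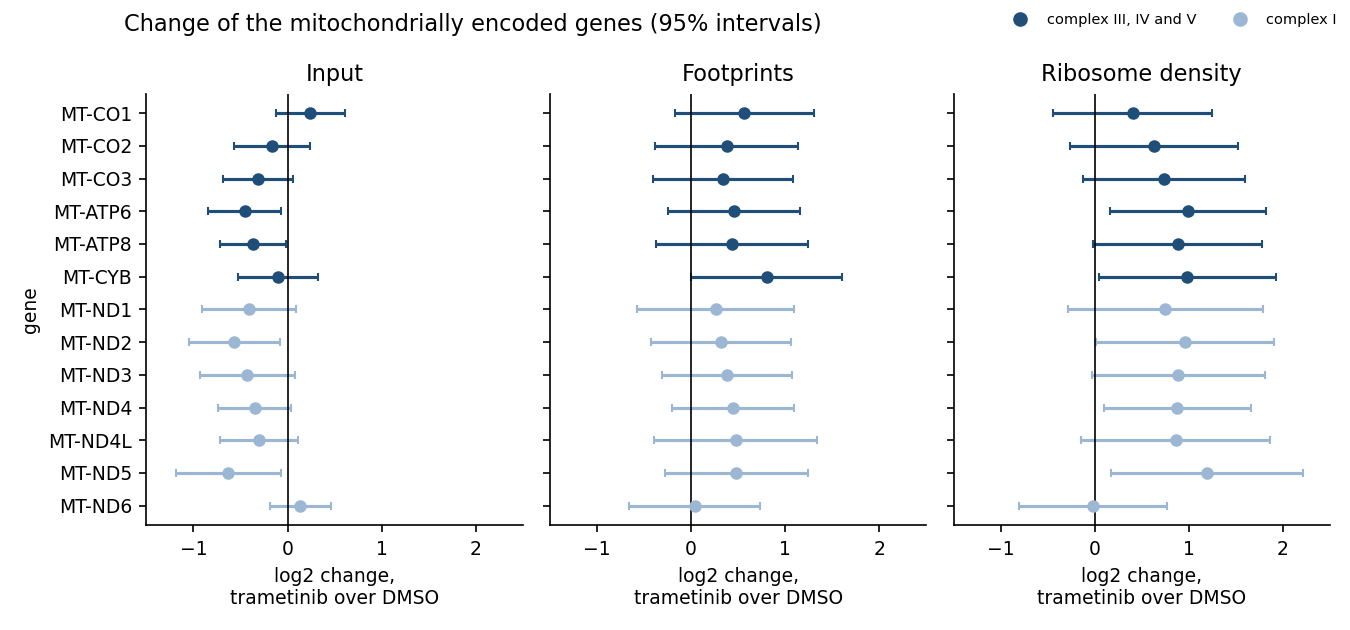
Log2 change of trametinib over DMSO with 95% intervals from edgeR (horizontal axis) for the 13 mitochondrially encoded genes (vertical axis) in input, footprints and ribosome density; dark points are the 6 genes of complexes III, IV and V and light points those of complex I. Footprint and density estimates of the 6 genes lie above 0, with intervals wider than the estimates themselves.

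Ribosome density, footprints over input, was described for each dish, that is, the input and footprint library with the same treatment and replicate number (the pairing rests on that number), as log2 of footprint CPM over input CPM. A value of 0 means an equal share of both assays, and the median gene was at 0.0094 in DMSO and at 0.07 in trametinib. In DMSO, 5 of 6 genes were far below the median gene, with means from -2.25 for MT-CO3 to -1.58 for MT-CO1, which placed them above only 2.65% to 7.39% of genes. MT-ATP8 was the exception at 0.29 ± 0.88 (SD, n = 3), above 61.5% of genes. The complex I genes in DMSO ranged from above 0.574% of genes (MT-ND4) to above 19.6% (MT-ND3). How well the monosomal fraction held mitochondrial ribosomes was not tested, so these ranks among nuclear genes do not measure how well the mRNAs are translated. In trametinib the means were -1.36 ± 0.24 for MT-CO3, -1.12 ± 0.48 for MT-CO2, -1.07 ± 0.41 for MT-ATP6, -1.03 ± 0.31 for MT-CO1, -0.44 ± 0.53 for MT-CYB and 1.35 ± 0.20 for MT-ATP8 (SD, n = 3).

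In all 6 genes the 3 dishes of DMSO were ordered alike, with replicate 2 the highest and replicate 3 the lowest. MT-ATP6 had densities of -1.97, -1.48 and -3.19 in DMSO dishes 1 to 3 and of -1.15, -0.63 and -1.43 in trametinib dishes 1 to 3. MT-CYB had -1.40, -0.72 and -2.74 in DMSO and -0.42, 0.08 and -0.98 in trametinib. MT-ATP8 had 0.37, 1.12 and -0.64 in DMSO and 1.32, 1.57 and 1.17 in trametinib. The treatments did not overlap for MT-ATP6 and MT-ATP8, that is for 2 of 6 genes, beside 18.3% of all tested genes.

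The change in density was tested as the interaction of assay and treatment over all 12 libraries, which compares group means of counts rather than means of the logarithms. The median log2 change of the 6 genes was 0.81, beside 0.07 over all tested genes, and all 6 estimates were above 0. edgeR called 0 of 6, against 0.91% of all tested genes called in either direction (0.0938% higher and 0.816% lower). DESeq2 and limma-trend also called 0 of 6. At an unadjusted p under 0.05 there were 2, MT-ATP6 with a log2 change of 0.99 (SE 0.39, 95% interval 0.16 to 1.82, adjusted p = 0.438) and MT-CYB with 0.99 (SE 0.44, 95% interval 0.05 to 1.93, adjusted p = 0.533). MT-ATP8 followed with 0.88 (95% interval -0.02 to 1.78), MT-CO3 with 0.74 (-0.12 to 1.59), MT-CO2 with 0.63 (-0.26 to 1.52) and MT-CO1 with 0.40 (-0.44 to 1.25). For 4 of the 6 genes the interval includes 0. With a replicate block by dish, 6 of 6 genes had an unadjusted p under 0.05 and 0 of 6 were called (lowest adjusted p = 0.0983, for MT-ATP6), while the calls over all genes went from 97 to 158. Without DMSO footprint replicate 3 the log2 changes were 0.08 for MT-CO1, 0.29 for MT-CO2, 0.42 for MT-CO3, 0.68 for MT-ATP6, 0.54 for MT-ATP8 and 0.65 for MT-CYB. Without DMSO footprint replicate 2 they were 0.78, 0.98, 1.18, 1.33, 1.37 and 1.43 in the same order.

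**Figure D3:**
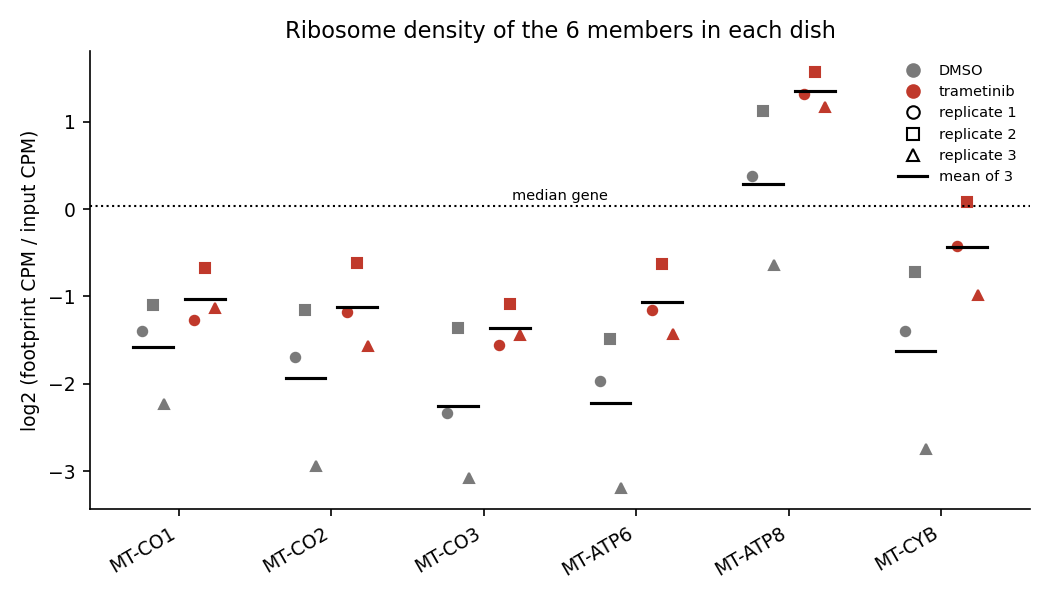
Log2 of footprint CPM over input CPM (vertical axis) of the 6 genes in each dish, DMSO in grey and trametinib in red, with bars at means of 3 and a dotted line at the median gene. MT-ATP8 lies above the other genes in each treatment, and DMSO replicate 3 is the lowest dish of each gene.

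MT-ATP8 and MT-ATP6 share an mRNA, and their ratio differed between the assays in every library. Per kilobase of coding sequence, MT-ATP8 had 0.461, 0.472 and 0.402 times the counts of MT-ATP6 in DMSO input and 0.480, 0.505 and 0.447 times in trametinib input. In footprints the ratio was 2.33, 2.87 and 2.36 in DMSO and 2.66, 2.32 and 2.69 in trametinib. The density of MT-ATP8 was therefore between 4.59 and 6.08 times that of MT-ATP6 in the 6 dishes, with overlapping values in both treatments. Part of this lies in the input ratios of 0.402 to 0.505, although the genes share an mRNA. MT-ATP8 has 204 coding bases and MT-ATP6 has 678, and reads inside the overlap match both symbols. The authors counted reads of a specific gene symbol, so such reads may have been counted for neither gene, which was not tested. With the overlap taken off both lengths and the counts unchanged, the ratio became 0.535 in DMSO input and 3.04 in DMSO footprints on average. This multiplies the ratio of every library by the same factor, so it cannot show what reads inside the overlap add or, if left out, take away.

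The part of the summed counts of the 13 mitochondrially encoded genes that each gene held was also compared between treatments. This measure does not depend on how libraries are scaled. In footprints MT-CYB held 8.62%, 9.15% and 8.33% in DMSO and 11.3%, 11.6% and 10.1% in trametinib. Its mean went from 8.70% ± 0.416 to 11.0% ± 0.763 (SD, n = 3), a ratio of 1.26, with no overlap. MT-CYB held 7.61% ± 0.633 of input in DMSO and 7.77% ± 0.715 in trametinib (SD, n = 3), where the treatments overlapped.

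MT-CO1 held 28.9%, 28.5% and 29.1% of the mitochondrially encoded footprints in DMSO and 29.7%, 30.4% and 30.9% in trametinib. In input it held 24.8%, 28.9% and 20.4% in DMSO and 34.6%, 33.1% and 29.1% in trametinib. Neither assay showed overlap between treatments, with ratios of 1.05 in footprints and 1.31 in input. With only the 6 genes as the denominator, the input values of MT-CO1 overlapped, and those of MT-CO3, lower in trametinib, did not.

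MT-ATP6 held 8.65% ± 0.462 of input in DMSO and 6.93% ± 0.46 in trametinib, and MT-ATP8 held 1.15% ± 0.0439 and 0.993% ± 0.053 (SD, n = 3), both without overlap. MT-CO2 held 17.4% ± 0.933 of footprints in DMSO and 16.2% ± 0.533 in trametinib (SD, n = 3), also without overlap. In each assay 3 of 6 genes did not overlap, beside 30.8% of the 13 genes, which include these 6. As parts of a whole, the shares also depend on each other. With 3 libraries against 3, a two-sided exact permutation test cannot go below p = 0.1, which is the value each of these comparisons reached.

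**Figure D4:**
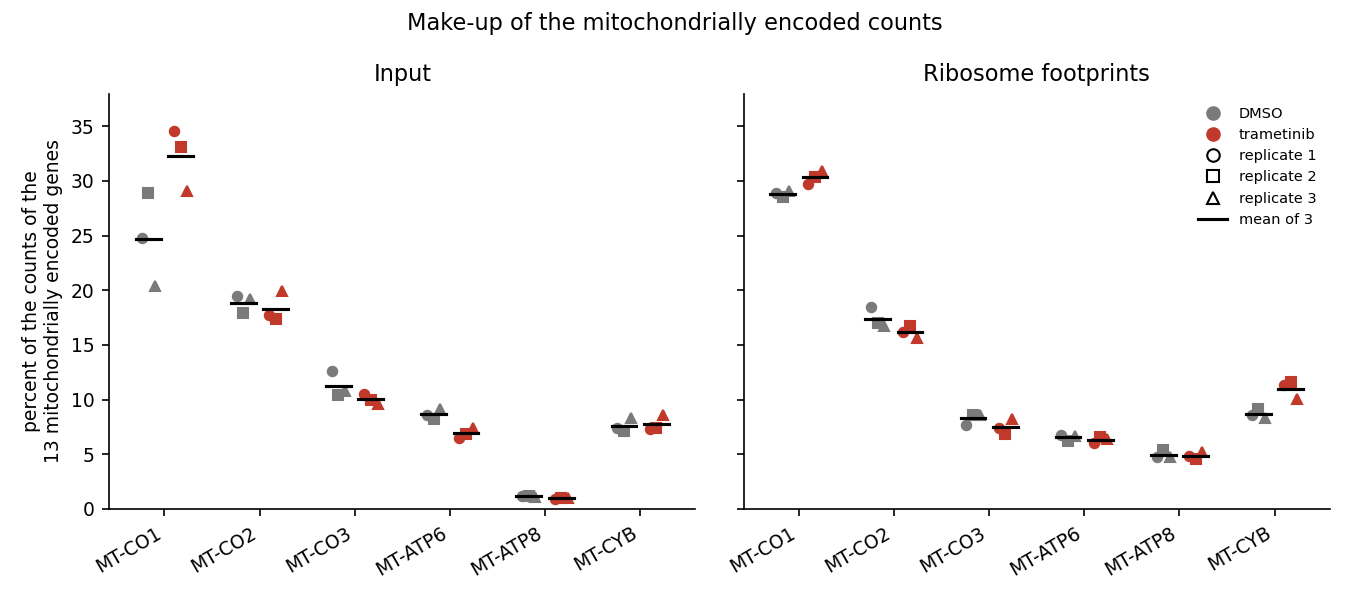
Percent of the counts of the 13 mitochondrially encoded genes held by each of the 6 genes (vertical axis from 0) in each input library (left) and footprint library (right), with bars at means of 3. MT-CYB holds 10.1% to 11.6% of footprints in trametinib and 8.33% to 9.15% in DMSO.

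The complex I genes behaved like the 6 genes in most measures. Of the 7, edgeR called 0 in input, footprints or density, with 2, 0 and 3 at an unadjusted p under 0.05, and the median log2 changes were -0.41, 0.38 and 0.88. DESeq2 also called 0 of 7 in each of the 3 comparisons. MT-ND6, the only gene of the 13 on the minus strand, stood apart with log2 changes of 0.14 in input, 0.04 in footprints and -0.02 in density. Across the 6 footprint libraries the log2 CPM of the 6 genes correlated with each other at Pearson's r of 0.941 to 0.997 over 15 pairs and with MT-ND6 at 0.607 to 0.775. In input their r with MT-ND6 was -0.793 to 0.035. Across the 6 input libraries the pairs ranged from -0.004 (MT-CO1 with MT-ATP6) to 0.977 (MT-ATP6 with MT-ATP8). These values are descriptions over libraries that share treatment and depth.

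The genes most like the 6 were found by Pearson's r of log2(CPM + 1) with their mean profile. Over 12 libraries the 10 nearest were MT-ND2 (0.95), MT-ND4L (0.95), MT-ND1 (0.94), PCLO (0.94), WNK1 (0.93), MT-ND4 (0.92), SLC52A3 (0.91), CIZ1 (0.91), CCDC71L (0.91) and ZNF592 (0.90). Within the 6 footprint libraries they were MT-ND5 (0.998), MT-ND4 (0.99), MT-ND3 (0.99), POGZ (0.99) and MT-ND4L (0.99). Within the 6 input libraries they were the nuclear genes ARID1A (0.99), KCTD1 (0.98), FHL1 (0.98), SMIM4 (0.98) and KLK10 (0.98), with no mitochondrially encoded gene among them. A search over all tested genes with 6 points per gene finds high values, and 14 genes in input and 18 in footprints reached 0.95.

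Nuclear genes whose products work with the 6 were examined through fixed lists. Most of their called genes were lower in trametinib footprints, where the estimates of the 6 genes were above 0. The main edgeR fit called none of the listed genes in ribosome density. Of the mitochondrial translation factors, edgeR called 14 of 19 lower and 0 higher in footprints, and 5 of 19 lower in input. Of the genes for mitochondrial transcription and RNA processing, 15 of 26 were called lower and 2 higher in footprints, and 12 lower and 1 higher in input. Without trametinib input replicate 2 the genes called lower in input numbered 3 translation factors and 7 transcription and RNA genes, and without trametinib input replicate 3 they numbered 7 of the latter. These fits called 1221 and 1358 of all tested genes lower, beside 1786 in the main fit. In the main fits 25.6% of all tested genes were called lower and 23.9% higher in footprints, and 16.7% lower and 15.4% higher in input.

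Among the translation factors, the elongation factor TSFM fell from 8.41 ± 3.60 to 4.31 ± 0.452 CPM in footprints, GFM1, which moves the mitochondrial ribosome along the mRNA, from 104 ± 5.89 to 58.4 ± 1.78 CPM, and C1QBP, a matrix protein needed for mitochondrial translation, from 793 ± 69.0 to 461 ± 17.1 CPM (mean ± SD, n = 3). Their log2 changes were -0.94, -0.83 and -0.78 (adjusted p-values 0.0233, 0.000218 and 0.000649, edgeR). The call of TSFM was lost with library totals (adjusted p = 0.0526) and without trametinib footprint replicate 1, 2 or 3 (0.0816, 0.0638 and 0.0569). In the transcription and RNA list PNPT1, a polynucleotide phosphorylase, fell by 1.19 on the log2 scale, POLRMT, the mitochondrial RNA polymerase, by 0.80, and SLIRP, which stabilises mitochondrial mRNAs together with LRPPRC, by 0.80 (adjusted p-values 4.1e-05, 0.00349 and 0.00105, edgeR). PNPT1, POLRMT, SLIRP, GFM1 and C1QBP were called lower in input as well, with log2 changes of -1.45, -0.77, -0.70, -0.77 and -0.69, while that of TSFM was not called (log2 change -0.59, adjusted p = 0.263).

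Of the assembly factors of complexes III, IV and V, 16 of 36 were called lower and 3 higher in footprints. COX17, a copper chaperone, fell from 62.3 ± 6.90 to 25.1 ± 2.34 CPM and BCS1L, which inserts the iron-sulfur protein into complex III, from 29.5 ± 2.43 to 12.4 ± 0.815 CPM, whereas COX15, which makes heme A, rose from 52.2 ± 5.63 to 121 ± 18.6 CPM (mean ± SD, n = 3). Their log2 changes were -1.31, -1.25 and 1.22 (adjusted p-values 6.75e-05, 9.96e-05 and 0.000187, edgeR). In input their log2 changes were -1.36, -1.36 and 1.13, all called as well (adjusted p-values 0.00192, 0.000328 and 0.00077, edgeR).

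Of the nuclear subunits, 2 of 8 of complex III, 4 of 12 of complex IV and 5 of 18 of complex V were called lower in footprints, and none was called higher by edgeR. These shares of 25.0%, 33.3% and 27.8% were close to the 25.6% of all tested genes called lower. UQCRH, the hinge protein of complex III, fell by 1.35 on the log2 scale in footprints with a log2 change of -0.02 in input. CYC1, its cytochrome c1, fell by 0.56 in footprints and was called lower in input too (log2 change -0.53, adjusted p = 0.0246, edgeR). Of complex IV, COX8A, COX5A and COX7C had footprint log2 changes of -1.46, -0.69 and -0.44, and of complex V, ATP5PB, ATP5MK and ATP5MG had -0.54, -0.46 and -0.46, all called. Of these, COX8A alone was also called in input (log2 change -0.70, adjusted p = 0.0306, edgeR). The calls of COX7C, ATP5PB, ATP5MK and ATP5MG were lost with library totals and without trametinib footprint replicate 1, with adjusted p-values of 0.0823, 0.0581, 0.105 and 0.0634 and of 0.0563, 0.0576, 0.0929 and 0.0526. Without trametinib footprint replicate 2 they were 0.0625, 0.0916 and 0.0551 for the complex V genes, without trametinib footprint replicate 3 it was 0.0539 for COX7C, and without DMSO footprint replicate 2 it was 0.0728 for ATP5MK. The density of UQCRH had a log2 change of -1.26 (adjusted p = 0.071, edgeR), and DESeq2 gave an adjusted p of 0.00414 for it. The edgeR value was 0.0487 with median-of-ratios size factors, 0.0226 without the filter and 0.0436 with TMM within each assay. It was 0.0227 with the replicate block and 0.00557 with the block by dish. With library totals it was 0.109, with TMM on nuclear genes 0.0669 and with a filter on either assay 0.0575. It was 0.00793 without DMSO footprint replicate 1, 0.0492 without DMSO input replicate 3 and 0.0432 without trametinib footprint replicate 3. Without each other library it was above 0.05, up to 0.193 without trametinib input replicate 1.

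With library totals in place of TMM the median footprint change of all tested genes shifted to 0.16, and the calls over all genes went from 2545 higher and 2727 lower to 3570 higher and 1951 lower. The lists then had 6 translation factors, 6 transcription and RNA genes, 8 assembly factors and 2 complex IV and 0 complex V subunits called lower, so part of each count depends on the scaling. Without trametinib footprint replicate 1 the counts were 7, 8, 9, 2 and 0 in the same order, and without trametinib footprint replicate 2 they were 7, 6, 10 and 0 for the translation factors, the transcription and RNA genes, the assembly factors and complex V. Without DMSO footprint replicates 2 or 3 the translation factors numbered 9 and 8 and the complex V subunits 2 and 3, without DMSO footprint replicate 1 the complex V subunits numbered 12, and without trametinib footprint replicate 3 complex IV had 2 and complex V had 3. Calls over all genes moved too. Without trametinib footprint replicates 1, 2 and 3 they were 2012, 2038 and 2226 lower. Without DMSO footprint replicates 1, 2 and 3 they were 3247, 2367 and 2504 lower.

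**Figure D5:**
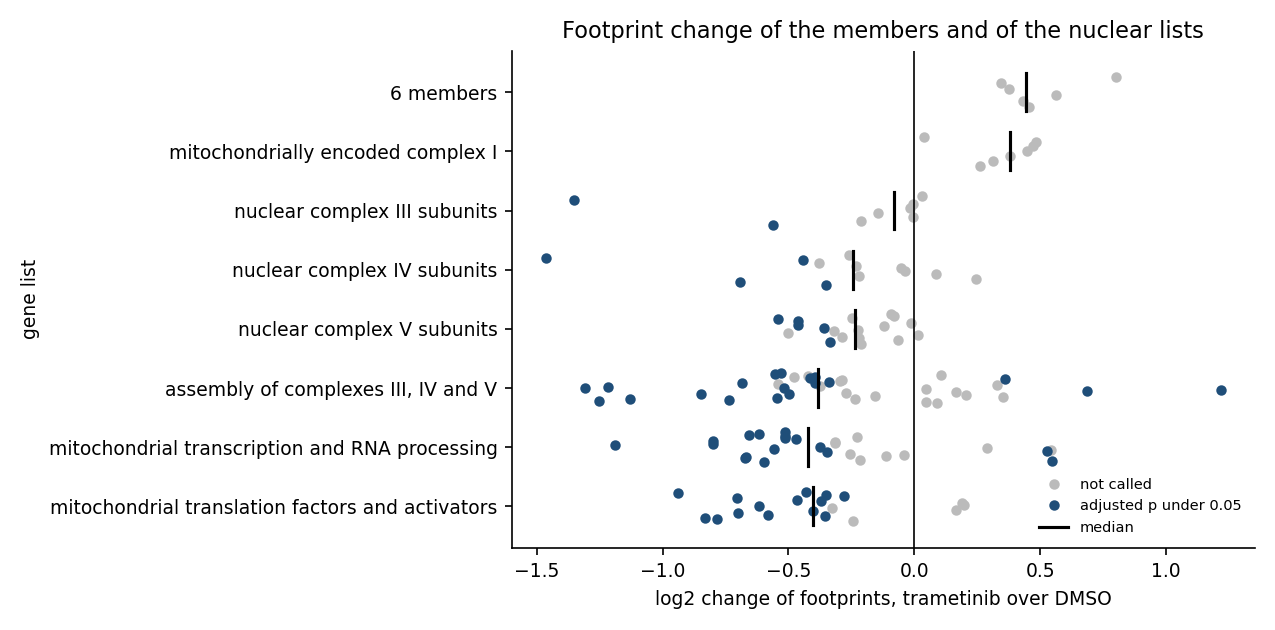
Log2 footprint change of trametinib over DMSO (horizontal axis) for each tested gene of the 6 members, the complex I genes and the nuclear lists (vertical axis); blue points have an adjusted p under 0.05 in edgeR and black bars are medians. The medians of the 6 genes and of complex I are 0.44 and 0.38, and those of the nuclear lists lie between -0.42 and -0.08.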

How the data were processed

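Ribosome profiling libraries of HCT116 cells were grouped by the treatment, assay and replicate number in their labels (4 groups of 3). The authors depleted rRNA, selected fragments of 25 to 35 nt, removed rRNA and tRNA reads with Bowtie 1.2.2, mapped the rest to the basic transcripts of Gencode and counted reads within reading frames of a specific gene symbol. The deposited table holds raw counts and, as a signal, the counts divided by a factor per library, which were checked but not used. Columns of fold changes and adjusted p-values from DESeq2 1.46.0 were not used.

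Counts were tested with edgeR 4.0.16 in R 4.3.3 (quasi-likelihood, TMM, Benjamini-Hochberg over 10663 genes, adjusted p under 0.05 called) for input, footprints and their interaction with treatment. The standard error of a log2 change is its size over the root of the F statistic. DESeq2 1.42.0, limma-trend 3.58.1 with a prior count of 2, other scalings, filters and blocks, and fits without each library were alternatives. The fits were also run on simulated counts with the same dispersion for all genes and libraries. That leaves out the unequal spread of DMSO and trametinib footprints, so it does not show how the fits handle it. Replicates differed by more than sampling noise, and the labels do not say whether they were separate cultures, although the study's supplement calls them biological replicates. Since all libraries are scaled to each other, a change common to all RNAs cannot be seen. Deviations from group means were correlated between DMSO and trametinib footprint libraries with the same number, over 7127 genes with a mean of at least 20 CPM. Pearson's r was 0.115, 0.132 and 0.294. The same r for input was 0.0653, 0.0469 and 0.356. Libraries with different numbers were not compared, so these values do not settle whether the numbers pair the libraries. The main tests used no replicate block, and blocks were alternatives. Input and footprint libraries of a number were taken as a dish, since the methods draw both from a lysate, but the labels tie them by number alone. Their r was 0.827, 0.176 and 0.354 in DMSO and 0.135, 0.0687 and -0.137 in trametinib.

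The 6 genes and the lists were chosen with earlier results of these data known. Named genes were all 6 members, at most 3 called genes per nuclear list with the largest footprint change (the main fit called no density change), the genes nearest in profile, and DUSP6, SPRY4 and ETV5. These last 3 genes all fell to at most 6 counts in trametinib input. The gene counts within the 13 mitochondrially encoded genes were compared after the data were seen. Of the listed genes, 1 complex III subunit, 5 complex IV subunits, 2 assembly factors, 2 transcription and RNA genes and 1 translation factor were not tested here. Coordinates and sequences came from GRCh38 with Gencode 44. The authors used an earlier Gencode release.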

Additional observations from a re-analysis of the deposited data

How the results depend on the processing

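Of 300 alternative values for the 6 genes, 283 kept their direction and side of the threshold, 14 passed it and 3 changed sign, all 3 without an input library (ranges without single libraries: MT-CO2 -0.3796 to 0.0389, MT-CYB -0.3327 to 0.1034). The number of genes called in input, 0, became 1 with no filter on low counts (MT-ATP6) and 3 with the replicate block (MT-CO3, MT-ATP6 and MT-ATP8, all lower), and ranged from 0 to 1 without single libraries. Whether the input numbers pair the libraries was not settled by the correlations given above. The number called in footprints, 0, became 1 (MT-CYB) with library totals, with DESeq2 and with the replicate block, and ranged from 0 to 4 without single libraries. The fit with 4, without DMSO footprint replicate 2, called 2245 of 10663 tested genes higher. No alternative called any of the 6 in density, where the lowest adjusted p was 0.0983 for MT-ATP6 with a replicate block by dish. Why these calls moved was not tested, except that fits without a library rest on fewer samples. Calls in density over all genes were 97 with edgeR, 187 with DESeq2 and 158 with the replicate block by dish. The replicate block raised the complex I genes called lower in input from 0 to 5, and all tested genes called lower in input from 1786 to 2053.

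Over nuclear counts only, the share of the 6 genes was 3.52% in DMSO input and 1.63% in trametinib footprints. Without single libraries, the shares ranged from 3.32% to 3.39% in DMSO input, 2.95% to 3.63% in trametinib input, 0.742% to 1.25% in DMSO footprints and 1.58% to 1.61% in trametinib footprints. With coding lengths less the overlap and unchanged counts (chosen after seeing the data), MT-ATP8 over MT-ATP6 was 0.535 and 0.574 in DMSO and trametinib input and 3.04 and 3.08 in footprints. Other composition denominators left 3 of 6 genes without overlap in each assay. In input with only the 6 genes counted these were MT-CO3, MT-ATP6 and MT-ATP8, so MT-CO3 took the place of MT-CO1. Without a library, the composition ratio of MT-CYB in input (1.02) ranged from 0.967 to 1.07, and that of MT-ATP8 in footprints (0.984) from 0.951 to 1.03.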
